A study of Homo sapiens with 12 samples.

Results

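The data compared HepG2 cells treated with dexamethasone and KLA together with cells treated with KLA alone, so that the change between the groups is the change with dexamethasone while KLA was present. HepG2 is a human hepatoma cell line. Dexamethasone (Dex) is a synthetic glucocorticoid. The labels do not spell out KLA, a name also in use for a lipid A that acts on the receptor TLR4, and do not settle whether that is meant. The means compared come from 6 of the 12 libraries of the series: KLA replicates 1 to 3 and DexKLA replicates 1 to 3. All 12 libraries entered the filter, the scaling and the fit that gave the spread, so the calls do not rest on the 6 alone. All cells are labelled wild type. They spent 24 h in medium with charcoal-stripped serum, which holds little steroid, and 24 h with the treatment. KLA is labelled at 100 ng/µl and Dex at 50 nM. The treatment text names a combined treatment and gives it no dose of its own. The libraries that gave no mean to the comparison were 3 with vehicle (DMSO, 0.1%) and 3 with Dex alone (50 nM). The labels do not say whether KLA or DexKLA cells received DMSO, nor whether replicates were separate cultures, so the p-values speak to the spread between libraries, which may be technical.

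Glucocorticoids enter the cell and bind the glucocorticoid receptor, which a complex of HSP90 and co-chaperones holds ready in the cytoplasm. The bound receptor moves to the nucleus, binds DNA as a pair of subunits at inverted repeats, and raises transcription of some genes while lowering others, inflammatory genes among them. In liver cells glucocorticoids are known for acting on glucose and amino acid metabolism, drug-metabolising enzymes and plasma proteins.

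Total counts over genes were 15998657, 20933501 and 18614368 in KLA replicates 1 to 3 and 9289765, 4514606 and 11484497 in DexKLA replicates 1 to 3. Every KLA library was deeper than every DexKLA library, so depth and treatment cannot be told apart by design. Between replicates of these groups the chi-square over genes was 3.13 to 24.1 times its degrees of freedom, so none was a copy of another. On the first principal component of the 6 libraries (35.2% of the variance) KLA replicate 3 lay at −29.1 and DexKLA replicate 2 at 21.0, with the other 4 between −3.04 and 11.5. DexKLA replicate 3 stood apart on the second component, at −26.6. Of the cell type markers, all 12 hepatocyte genes were expressed, and they summed to 129473 to 137943 CPM (counts scaled to a common library total) in KLA libraries and 132501 to 159950 in DexKLA libraries.

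With KLA present, 58 genes were higher with Dex and 28 were lower. Among genes whose average log2 CPM over the 12 libraries was not below 0 the rises were led by HIF3A, HOMER2 and CYP3A43. The rises included genes of drug metabolism and a few textbook glucocorticoid targets. The falls were led by the amino acid transporter SLC6A14 and included a group of aldo-keto reductases and aldehyde and steroid dehydrogenases. Secreted regulators of Wnt and activin signalling went both ways, with DKK4 and FSTL3 higher and DKK1 and FST lower. A gene counted as called at an adjusted p under 0.05 by the quasi-likelihood test of edgeR, adjusted by Benjamini and Hochberg's method across 13166 genes. The 86 called genes were 0.653% of those tested, the 58 called higher 0.441% and the 28 called lower 0.213%. Over 2-fold changes were found for 21 genes called higher and 6 called lower, and the median absolute log2 change of called genes was 0.79. In every one of the 86, the 3 KLA and the 3 DexKLA libraries did not overlap. Over all tested genes, 8.1% had all 3 DexKLA libraries above all 3 KLA libraries and 7.16% had them below. These are bulk libraries scaled to one another, so a change in RNA per cell and a change in how many cells express a gene cannot be told apart.

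**Figure D1:**
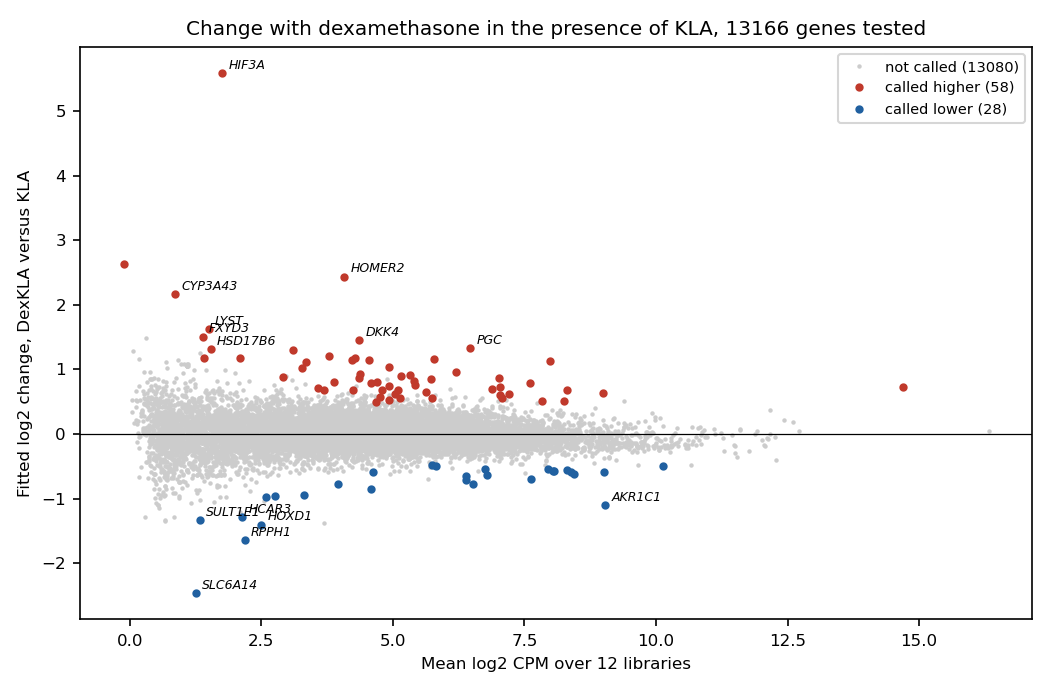
Fitted log2 change in DexKLA versus KLA (vertical axis) against mean log2 CPM over the 12 libraries (horizontal axis), with 1 point for each of 13166 tested genes. The 58 genes called higher are red and the 28 called lower are blue. HIF3A stands alone at 5.59, and SLC6A14 lies lowest at −2.46.

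The number of calls depended on single libraries, on which libraries were fitted together and on depth. It was 52 (34 higher, 18 lower) without DexKLA replicate 2 and 55 (49 higher, 6 lower) without DexKLA replicate 3. Fitted on the 6 libraries alone it was 38, 30 higher and 8 lower, 47 of the 86 calls ended and LOC285847 was not tested. With every library thinned to the depth of the shallowest, in 1 random draw, it was 28, 22 higher and 6 lower, 59 of the 86 calls ended and 2 genes (SLC6A14 and LOC285847) were not tested. Called in all 12 fits that left out 1 library were 35 genes, 31 higher and 4 lower. The 18 genes called under every alternative that gave a value were HIF3A, HOMER2, DKK4, PGC, DOCK4, CAVIN2, MATN3, SYBU, FKBP5, LOC105377267, MIXL1, UGT2B11, FAM169A, SLC25A30, CYP3A7 and ERRFI1, all higher, and AKR1C1 and SLC6A14, both lower. The 6 libraries alone kept 20 more calls: CYP3A43, CYP3A7-CYP3A51P, LYST, GNMT, NRBP2, PTGDR2, SUSD2, KLF9, IGFBP2, MAOA, CD36, SAMHD1, ATAD2 and LANCL1, all higher, and HOXD1, RPPH1, C8B, TEX19, AKR1B10 and ADH4, all lower. Thinning kept 8 more, among them NXPH3, AFP and AKAP12, higher, and ADH4, ALDH1A1, FST and IER3, lower. Its log2 change was over 1.5 times smaller for 6 called genes (CD36, CRY2, HOXD1, KLF9, LIPG and TEX19, whose values are given below) and over 1.5 times larger for 9. NXPH3 was among these 9, at 6.36 when thinned (edgeR adjusted p = 0.0199) against 1.19 in the fit as reported. Its call was kept there, but not the size of its change. Below, where a call ended when a library was left out, the number of the 12 fits that kept it is given. Counts of called list members below stand against 0.653% called over all tested genes (0.441% higher, 0.213% lower). The lists were chosen with earlier results of these data known.

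**Figure D2:**
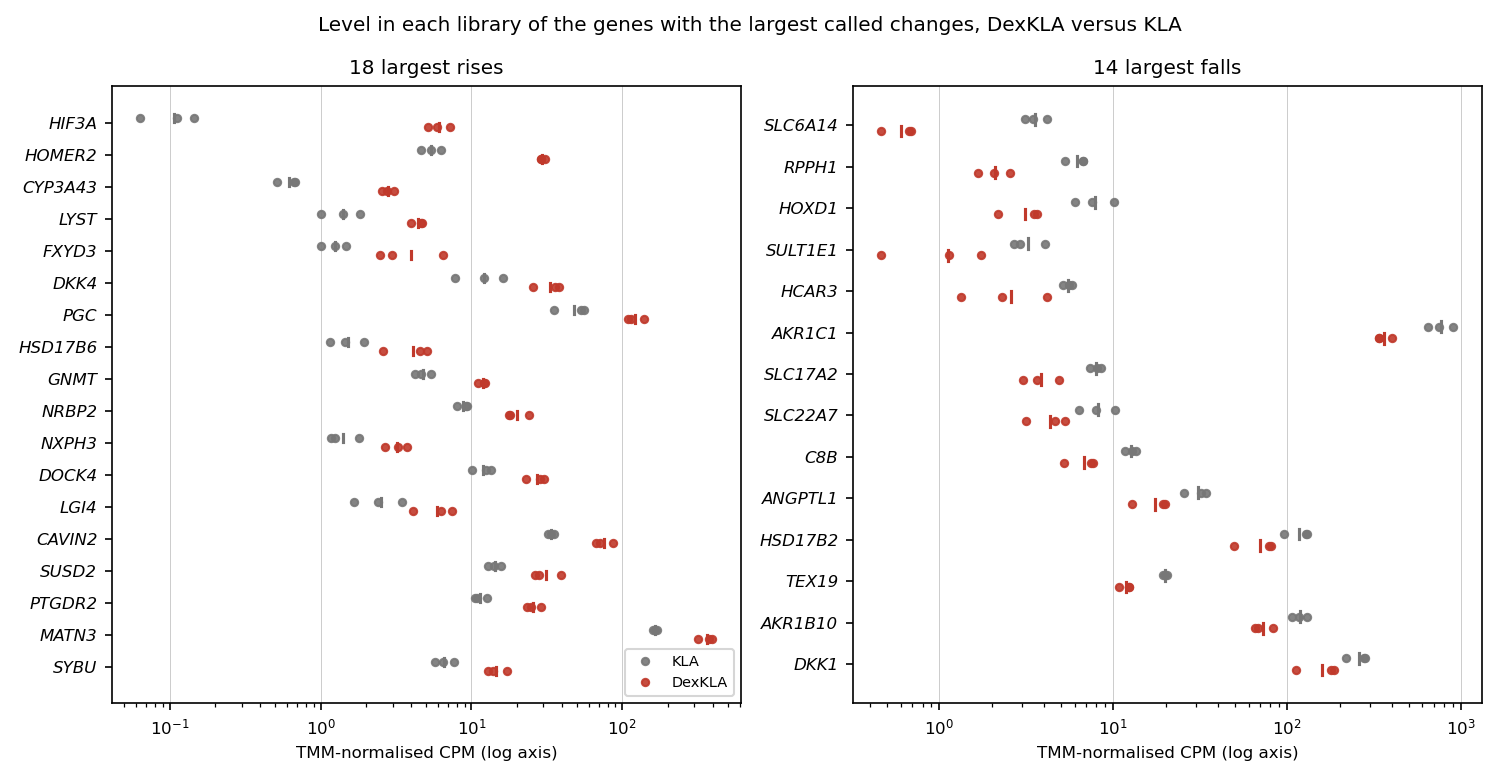
Level in each KLA library (grey) and each DexKLA library (red) of the 18 genes with the largest called rises (left) and the 14 with the largest called falls (right), in TMM-normalised CPM on a log axis; points are libraries and short bars are means of 3. Having the libraries of both groups apart was part of the rule that picked these genes. The widest gap is that of HIF3A, from 0.145 to 5.15.

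The receptor itself did not pass the test. NR3C1, the glucocorticoid receptor gene, stood at 29.7, 29.1 and 20.3 CPM (after TMM scaling, in replicate order here and below) in the KLA libraries and 31.6, 30.6 and 26.998 in the DexKLA libraries. The groups overlapped (log2 0.17 ± 0.16, edgeR adjusted p = 0.733). FKBP5, a co-chaperone that lowers the receptor's affinity for hormone and is a textbook glucocorticoid target, was at 15.4, 17.97 and 24.5 CPM with KLA and 36.3, 32.96 and 48.6 with DexKLA. All DexKLA libraries were above all KLA libraries, with KLA replicate 3 nearest to the gap (log2 1.04 ± 0.16, edgeR adjusted p = 0.000869). Among 22 tested genes of the receptor and its chaperones FKBP5 was the only one called, and the list's median change was −0.04 against 0.00 over all tested genes. HSP90AA1, which encodes the inducible form of HSP90, stood at 3447 ± 979.9 to 3042 ± 237 CPM (mean ± SD, n = 3, edgeR adjusted p = 0.687).

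The median change of 32 tested glucocorticoid receptor targets was 0.19, against 0.00 over all tested genes. Of the 32, 3 were called higher and none lower (9.38%, against 0.653% of all tested genes). Besides FKBP5 these were KLF9, a transcription factor, and ERRFI1, an inhibitor of the EGF receptor. KLF9 rose from 14.1 ± 1.28 to 27.2 ± 2.22 CPM (log2 0.94 ± 0.13, edgeR adjusted p = 0.000274), and was at 0.46 and not called when thinned to equal depth (adjusted p = 0.525). ERRFI1 rose from 141 ± 29.6 to 245 ± 33.9 CPM (log2 0.79 ± 0.13, edgeR adjusted p = 0.00263). Most of the list was not called. Uncalled members with high levels included IGFBP1, which binds insulin-like growth factors (2441 ± 517 to 2463 ± 574 CPM), and GLUL, glutamine synthetase (253 ± 21.1 to 271 ± 7.39 CPM). TSC22D3, also known as GILZ, had 7, 18 and 5 counts in the KLA libraries and 13, 3 and 13 in the DexKLA libraries, too few to be tested. Scaled to library totals that was 0.438, 0.8599 and 0.269 CPM with KLA and 1.399, 0.665 and 1.13 with DexKLA, overlapping through DexKLA replicate 2. The ratio of pooled counts, scaled in the same way, was 2.12 with an exact 95% binomial interval of 1.23 to 3.66 for counting error only. Among 11 tested Kruppel-like factors KLF9 was the only one called (median 0.28), and KLF6 stood at 34.8 ± 2.41 to 49.6 ± 0.744 CPM with an edgeR adjusted p of 0.0734. In the clock list 1 of 19 was called, the transcriptional repressor CRY2, which rose from 13.9 ± 1.79 to 22.3 ± 1.28 CPM (log2 0.68 ± 0.13, edgeR adjusted p = 0.0117) and was called in 11 of 12 fits (adjusted p = 0.0594 without DexKLA replicate 1). It was not called with the 6 libraries alone, and was at 0.19 when thinned (adjusted p = 0.837).

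HIF3A had the largest change of all tested genes. Its protein is the third alpha subunit of hypoxia-inducible factors, and some of its forms restrain the other subunits (chromosome 19, 46303619 to 46343433, plus strand, hg38). It had 1, 3 and 2 counts in the KLA libraries and 52, 31 and 62 in the DexKLA libraries. In CPM that was 0.0641, 0.145 and 0.112 with KLA and 5.94, 7.196 and 5.15 with DexKLA. The groups were far apart, but the KLA level rests on 6 counts in all. The ratio of pooled counts was 53.1, with an exact 95% binomial interval of 23.8 to 147 that covers counting error only, and the fitted change was 5.59 ± 0.33 on the log2 scale (edgeR adjusted p = 3.48e-10). None of the other 8 tested genes of the oxygen-sensing list was called. HIF1A stood at 68.7 ± 2.82 to 79.01 ± 8.898 CPM, EPAS1, the second major alpha subunit, at 76.9 ± 15.4 to 88.8 ± 11.96 CPM, and EGLN1, the prolyl hydroxylase that marks them for degradation, at 147 ± 18.8 to 153 ± 22.005 CPM. Of 28 tested genes of hypoxia and glycolysis none was called (median −0.06). LDHA, lactate dehydrogenase, stood at 2324 ± 318 to 2314 ± 140.5 CPM.

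HOMER2 had the next largest rise of the genes whose average log2 CPM was not below 0. It encodes a scaffold that links glutamate receptors and inositol trisphosphate receptors (chromosome 15, 82848984 to 82952720, minus strand). The KLA libraries held 4.62, 5.41 and 6.25 CPM and the DexKLA libraries 28.8, 28.8 and 30.9. The DexKLA libraries lay close together, 5.42-fold above KLA by the fitted value (log2 2.44 ± 0.14, edgeR adjusted p = 3.48e-10). Its relatives and partners were not called. HOMER1 stood at 38.3 ± 5.57 to 40.3 ± 4.89 CPM, and the inositol trisphosphate receptors ITPR2 and ITPR3 at 71.03 ± 7.06 to 85.9 ± 22.1 CPM and 27.7 ± 4.98 to 34.3 ± 7.02 CPM. The list of 9 tested members had a median of 0.27.

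Several other large rises fell on genes of signalling, trafficking and membrane organisation. DOCK4, an activator of Rac and Rap GTPases, was at 12.4, 13.5 and 10.05 CPM with KLA and 23.1, 28.3 and 30.4 with DexKLA (log2 1.18 ± 0.15, edgeR adjusted p = 0.000179). CAVIN2, which shapes caveolae, was at 35.3, 32.1 and 33.9 CPM with KLA and 66.9, 71.5 and 87.4 with DexKLA (log2 1.16 ± 0.12, edgeR adjusted p = 4.58e-06). Neither gene's groups came near each other, and CAVIN2 was the only one called of 6 tested caveolae genes, with CAVIN1 at 53.02 ± 1.36 to 59.2 ± 1.59 CPM. SYBU, which links cargo to kinesin motors, was at 7.69, 6.47 and 5.69 CPM with KLA and 13.9, 17.2 and 12.9 with DexKLA (log2 1.12 ± 0.17, edgeR adjusted p = 0.000869). LYST, a regulator of lysosome traffic, was at 1.41, 1.84 and 1.005 CPM with KLA and 3.997, 4.64 and 4.74 with DexKLA (log2 1.63 ± 0.31, edgeR adjusted p = 0.0082). LYST lost its call without DexKLA replicate 3 (adjusted p = 0.096). Membrane and signalling proteins were also separated between the groups. NRBP2, a kinase-like protein, was at 9.36, 7.97 and 9.15 CPM with KLA and 18.2, 17.9 and 24.2 with DexKLA (log2 1.21 ± 0.16, edgeR adjusted p = 0.000179). PTGDR2, the prostaglandin D2 receptor CRTH2, was at 10.6, 10.9 and 12.8 CPM with KLA and 23.3, 28.8 and 24.9 with DexKLA (log2 1.15 ± 0.15, edgeR adjusted p = 0.000179), and lies opposite CCDC86. SUSD2, a membrane protein, was at 12.8, 15.8 and 14.1 CPM with KLA and 26.5, 28.1 and 39.3 with DexKLA (log2 1.15 ± 0.16, edgeR adjusted p = 0.000274). DexKLA replicate 3 was the highest for SUSD2 and NRBP2. FXYD3, a modulator of the sodium pump, was at 1.47, 1.26 and 1.005 CPM with KLA and 2.97, 6.4998 and 2.49 with DexKLA (log2 1.51 ± 0.32, edgeR adjusted p = 0.025). DexKLA replicate 2 carried the highest FXYD3 value by far, and its call, kept in 9 of 12 fits, ended without that library or KLA replicates 2 or 3 (adjusted p up to 0.175).

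Secreted proteins changed in both directions, among them antagonists of the same pathways. DKK4 and DKK1 both encode secreted antagonists of Wnt signalling, and they moved apart. DKK4 was at 12.2, 7.83 and 16.3 CPM with KLA and 25.7, 37.8 and 36.1 with DexKLA (log2 1.45 ± 0.20, edgeR adjusted p = 0.000274). DKK1, which lies opposite PRKG1-AS1, was at 275, 279 and 217 CPM with KLA and 178, 187 and 113 with DexKLA (log2 −0.70 ± 0.14, edgeR adjusted p = 0.0186). DexKLA replicate 3 held the lowest DKK1 value. The DKK1 call was kept in 9 of 12 fits, ending without KLA replicates 1 or 2 or DexKLA replicate 3 (adjusted p up to 0.0903). The other 16 of 18 tested Wnt feedback genes were not called, with NOTUM, an enzyme that inactivates Wnt ligands, at 455 ± 89.4 to 399 ± 40.98 CPM and SP5, a target of beta-catenin, at 337 ± 20.3 to 349.8 ± 21.5 CPM.

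In the activin and follistatin list 5 of 17 tested genes were called, 1 higher and 4 lower, and the median was 0.03. That was 29.4% called, against 0.653% of all tested genes. With the 6 libraries alone none of these 5 genes was called (edgeR adjusted p from 0.0672 to 0.249). FSTL3, a follistatin relative that binds activin and myostatin, rose from 26.1 ± 3.76 to 42.3 ± 4.95 CPM (log2 0.69 ± 0.15, edgeR adjusted p = 0.024). FST, follistatin itself, fell from 415 ± 56.7 to 272 ± 42.3 CPM (log2 −0.61 ± 0.12, edgeR adjusted p = 0.0131). INHA, the inhibin alpha subunit, fell from 32.3 ± 2.94 to 21.8 ± 3.83 CPM (log2 −0.59 ± 0.13, edgeR adjusted p = 0.0327). ID1 and ID2, targets of BMP signalling that block bHLH transcription factors, fell from 335 ± 48.5 to 225 ± 47.2 CPM and from 136 ± 13.2 to 93.9 ± 11.8 CPM (edgeR adjusted p = 0.0326 and 0.0436). ID3, of the same family, stood at 46.7 ± 0.736 to 32.9 ± 4.17 CPM with an adjusted p of 0.124. These calls were sensitive to single libraries: FST was called in 10 of 12 fits, FSTL3 in 8 of 12, INHA in 6 of 12, ID2 in 6 of 12 and ID1 in 5 of 12. The largest adjusted p among those fits was 0.0986 for FST, 0.141 for FSTL3, 0.266 for INHA, 0.305 for ID2 and 0.187 for ID1, and FST, INHA, ID1 and ID2 all lost the call without DexKLA replicate 3.

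MATN3, a cartilage matrix protein, was at 159.6, 169 and 166 CPM with KLA and 316, 376 and 396 with DexKLA (log2 1.14 ± 0.11, edgeR adjusted p = 1.61e-06). Its KLA libraries were tightly grouped, and all DexKLA libraries lay well above them. Of 34 tested matrix genes it was the only one called higher, while SPP1, osteopontin, and CCN2, connective tissue growth factor, were called lower. SPP1 fell from 698 ± 79.7 to 465 ± 74.3 CPM (log2 −0.59 ± 0.12, edgeR adjusted p = 0.0147) and CCN2 from 303 ± 50.02 to 209 ± 21.7 CPM (log2 −0.54 ± 0.12, edgeR adjusted p = 0.0341). SPP1 was called in 9 of 12 fits (adjusted p up to 0.0945) and CCN2 in 5 of 12 (up to 0.235), neither without DexKLA replicate 2 or 3. FN1, fibronectin, stood at 5402 ± 1241 to 6167 ± 1139 CPM.

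Further secreted proteins among the large changes have known roles outside the liver. PGC, the precursor of the stomach protease gastricsin, was at 53.2, 55.6 and 35.3 CPM with KLA and 139.8, 115 and 108 with DexKLA (log2 1.33 ± 0.15, edgeR adjusted p = 3.21e-05). LGI4, a secreted protein of peripheral nerve, was at 3.46, 2.42 and 1.67 CPM with KLA and 6.28, 7.43 and 4.07 with DexKLA (log2 1.17 ± 0.26, edgeR adjusted p = 0.0334). NXPH3, a ligand of neurexins, was at 1.79, 1.26 and 1.17 CPM with KLA and 3.77, 3.25 and 2.66 with DexKLA (log2 1.19 ± 0.26, edgeR adjusted p = 0.0326). The PGC call held in all 12 fits, whereas LGI4 was called in 8 of 12 (adjusted p up to 0.173) and NXPH3 in 7 of 12 (up to 0.175). ANGPTL1, a secreted relative of the angiopoietins, went down, from 31.9, 34.3 and 25.3 CPM with KLA to 19.2, 19.96 and 12.9 with DexKLA (log2 −0.85 ± 0.17, edgeR adjusted p = 0.0131). It was called in 10 of 12 fits and not without KLA replicate 2 or DexKLA replicate 3 (adjusted p up to 0.177). ANGPTL1 shares positions with RALGPS2.

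Most of the called enzymes that reduce or oxidise steroids and aldehydes were lower with Dex. Of 39 tested members 6 were called lower and 1 higher (17.9%, against 0.653% of all tested genes), while the median of the list was −0.07. AKR1C1, which reduces progesterone and many carbonyl compounds (chromosome 10, 4963415 to 4983282, plus strand), was at 742, 649 and 904 CPM with KLA and 399.5, 337 and 338 with DexKLA. The groups were well apart, 2.13-fold lower with DexKLA by the fitted value (log2 −1.09 ± 0.12, edgeR adjusted p = 1.04e-05). AKR1B10, a related reductase of retinal and other aldehydes, was at 118, 107 and 129.6 CPM with KLA and 83.4, 68.02 and 65.5 with DexKLA (log2 −0.71 ± 0.12, edgeR adjusted p = 0.00228). AKR1C2, close in sequence to AKR1C1 and so uncertain where reads were shared between them, fell from 336 ± 19.1 to 226 ± 40.9 CPM (log2 −0.57 ± 0.11, edgeR adjusted p = 0.0124). AKR1C3, the next member of that cluster, was not called (569 ± 42.2 to 477 ± 92.5 CPM, edgeR adjusted p = 0.469).

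HSD17B2, which inactivates oestradiol and testosterone by oxidation, was at 128, 129 and 96.3 CPM with KLA and 79.03, 81.02 and 49.7 with DexKLA (log2 −0.77 ± 0.15, edgeR adjusted p = 0.0117). DexKLA replicate 3 was the lowest. ALDH1A1, which makes retinoic acid from retinal, fell from 426 ± 18.3 to 284 ± 27.9 CPM (log2 −0.59 ± 0.10, edgeR adjusted p = 0.00385), and ADH4, an alcohol dehydrogenase that also oxidises retinol, from 113 ± 17.1 to 72.6 ± 3.48 CPM (log2 −0.64 ± 0.12, edgeR adjusted p = 0.0104). HSD17B6, which acts on androgen metabolites, went the other way, from 1.15, 1.93 and 1.45 CPM with KLA to 4.57, 5.11 and 2.58 with DexKLA (log2 1.32 ± 0.30, edgeR adjusted p = 0.0372). Calls for AKR1C1, AKR1B10 and ALDH1A1 held in all 12 fits. HSD17B6 was called in 6 of 12 fits (adjusted p up to 0.196). AKR1C2 and HSD17B2 were called in 10 of 12 fits each and ADH4 in 11 of 12, and none of the 3 was called without DexKLA replicate 3 (adjusted p up to 0.102, 0.0758 and 0.0746).

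AKR1C1, AKR1C2 and AKR1B10 were also the 3 called genes, all lower, of 35 tested targets of the oxidative stress factor NRF2 (median −0.13). NQO1, a quinone reductase and standard NRF2 target, stood at 995 ± 118 to 717 ± 83.2 CPM (edgeR adjusted p = 0.0601). FTL, ferritin light chain, stood at 3302 ± 403 to 2574 ± 171 CPM (adjusted p = 0.301), and PRDX1, a peroxidase, at 1066 ± 160.5 to 909 ± 121 CPM (adjusted p = 0.522).

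Drug-metabolising enzymes held 4 called higher and 1 called lower of 35 tested (14.3%, against 0.653% of all tested genes, median 0.06). The rises were CYP3A genes and a glucuronosyltransferase, and the fall was a sulphotransferase. CYP3A43, a minor member of the CYP3A cluster, was at 0.513, 0.676 and 0.67 CPM with KLA (8, 14 and 12 counts) and 2.74, 2.55 and 3.07 with DexKLA (24, 11 and 37 counts). No DexKLA library came near the KLA range (log2 2.16 ± 0.35, edgeR adjusted p = 0.00166). CYP3A7, the fetal form, rose from 18.9 ± 0.949 to 33.4 ± 3.74 CPM (log2 0.81 ± 0.13, edgeR adjusted p = 0.00153). CYP3A5 rose from 9.44 ± 1.41 to 15.5 ± 1.17 CPM (log2 0.71 ± 0.16, edgeR adjusted p = 0.0308) and was called in 8 of 12 fits (adjusted p up to 0.186). The readthrough entry CYP3A7-CYP3A51P rose by 0.88 and shares positions with CYP3A7, and ZSCAN25 overlaps all of them but CYP3A43. Near-identical sequence within the CYP3A cluster makes the split of reads among its members uncertain. UGT2B11, which couples glucuronic acid to steroids and fatty acids, rose from 31.1 ± 2.87 to 59.1 ± 11.01 CPM (log2 0.91 ± 0.14, edgeR adjusted p = 0.000668). The uncharacterised transcript LOC105377267, on the opposite strand across UGT2B11, rose from 7.15 ± 0.347 to 14.9 ± 1.88 CPM (log2 1.03 ± 0.17, edgeR adjusted p = 0.0021), and reads of the pair cannot be told apart. UGT2B10, a close relative of UGT2B11, was not called (495 ± 142 to 524 ± 54.6 CPM). SULT1E1, the oestrogen sulphotransferase, was called lower, from 2.69, 4.06 and 2.903 CPM with KLA to 1.14, 0.464 and 1.74 with DexKLA (log2 −1.33 ± 0.31, edgeR adjusted p = 0.0476). Its call was kept in 1 of 12 fits, ending without every library but KLA replicate 3 (adjusted p up to 0.182).

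Carriers of amino acids, ions and organic anions included the largest fall. SLC6A14, a transporter of neutral and cationic amino acids (chromosome X, 116436606 to 116461458, plus strand), had 54, 64 and 74 counts in the KLA libraries and 6, 2 and 8 in the DexKLA libraries. In CPM it was at 3.46, 3.09 and 4.13 with KLA and 0.685, 0.464 and 0.665 with DexKLA. The groups were apart, at low counts with DexKLA. The pooled count ratio of KLA over DexKLA was 5.46, with a 95% counting interval of 3.28 to 9.75, and the fitted change was −2.46 ± 0.35 (edgeR adjusted p = 0.000354). It was the only one called of 25 tested amino acid transporters (median 0.11), with SLC38A2, SLC7A5 and SLC1A5 at 884 ± 104 to 1016 ± 108 CPM, 243 ± 44.8 to 273 ± 18.9 CPM and 259 ± 36.3 to 229 ± 13.6 CPM. SLC17A2, of the phosphate and anion carriers, was at 8.08, 8.503 and 7.31 CPM with KLA and 3.65, 3.02 and 4.901 with DexKLA (log2 −0.98 ± 0.20, edgeR adjusted p = 0.0139). SLC22A7, the organic anion transporter OAT2, which lies opposite CRIP3, was at 7.95, 10.2 and 6.36 CPM with KLA and 5.25, 4.64 and 3.16 with DexKLA (log2 −0.96 ± 0.22, edgeR adjusted p = 0.0476). The SLC17A2 call was kept in 9 of 12 fits (adjusted p up to 0.0884) and that of SLC22A7 in 2 of 12 (up to 0.457), so the latter rests on few fits. Among the rises, SLC25A30, a mitochondrial carrier that lies opposite SLC25A30-AS1 and TPT1-AS1, went from 30.5 ± 1.72 to 53.7 ± 0.952 CPM (log2 0.82 ± 0.11, edgeR adjusted p = 0.00028). SLC26A3, a chloride and bicarbonate exchanger, rose by 0.78, and SLC23A2, a vitamin C transporter, by 0.74, each called in 9 of 12 fits (adjusted p up to 0.167 and 0.161).

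In gluconeogenesis and amino acid catabolism 1 of 33 tested genes was called. GNMT, which uses up S-adenosylmethionine by methylating glycine, was at 4.23, 4.64 and 5.41 CPM with KLA and 12.3, 12.1 and 11.1 with DexKLA (log2 1.30 ± 0.19, edgeR adjusted p = 0.000668). The lowest DexKLA library was well above the highest KLA library. GNMT lies opposite PEX6 and within the readthrough gene CNPY3-GNMT. AHCY, the next enzyme of the methyl cycle, stood at 864 ± 63.5 to 793 ± 85.3 CPM, and GPT2, an alanine aminotransferase, at 527 ± 53.8 to 626 ± 54.1 CPM. The list's median was −0.06. No member was called of 26 tested genes of fatty acid and triglyceride synthesis (median 0.12), 26 of fatty acid oxidation (−0.02), 27 of cholesterol synthesis and uptake (0.06) or 16 of bile acid handling (−0.01). FASN, fatty acid synthase, stood at 799.9 ± 111 to 926 ± 216 CPM. Outside these lists, CD36, which takes up fatty acids, rose from 12.03 ± 0.98 to 20.9 ± 1.64 CPM (log2 0.81 ± 0.14, edgeR adjusted p = 0.00385), and MAOA, monoamine oxidase A, from 36.2 ± 4.48 to 65.3 ± 3.18 CPM (log2 0.85 ± 0.12, edgeR adjusted p = 0.000274). LIPG, endothelial lipase, rose by 0.68 and GPX3, a secreted glutathione peroxidase, by 0.52. LIPG was called in 7 of 12 fits (adjusted p up to 0.146) and GPX3 in 10 of 12 (up to 0.166). When thinned CD36 was at 0.41 (adjusted p = 0.679) and LIPG at 0.39 (adjusted p = 0.688), neither called. HCAR3, a receptor for hydroxylated fatty acids nearly identical to HCAR2, fell from 5.77, 5.56 and 5.14 CPM with KLA to 2.28, 4.18 and 1.33 with DexKLA (log2 −1.28 ± 0.28, edgeR adjusted p = 0.025), a call kept in 8 of 12 fits (adjusted p up to 0.379).

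Genes of liver plasma proteins were called in both directions. AFP, alpha-fetoprotein, the fetal counterpart of albumin, rose from 21765 ± 777 to 35951 ± 7916 CPM (log2 0.72 ± 0.15, edgeR adjusted p = 0.0203), while ALB, albumin, stood at 88454 ± 982 to 91128 ± 14471 CPM. IGFBP2 and IGFBP4, which bind insulin-like growth factors, moved in opposite directions, from 26.6 ± 4.47 to 49.9 ± 3.51 CPM (log2 0.90 ± 0.13, edgeR adjusted p = 0.000303) and from 60.3 ± 2.53 to 43.4 ± 2.78 CPM (log2 −0.48 ± 0.10, edgeR adjusted p = 0.025). Of 32 tested apolipoproteins and secreted hepatocyte proteins these 3 were the called ones (9.38%, against 0.653% of all tested genes, median −0.10). Of 22 acute-phase genes 2 were called lower and none higher (9.09%), with a median of −0.29 against 0.00 over all tested genes. All 3 DexKLA libraries lay below all 3 KLA libraries for 12 of the 22, against 7.16% of all tested genes. They lay above for 0, against 8.1%. FGB, the fibrinogen beta chain, fell from 1319.5 ± 21.8 to 932 ± 62.7 CPM (log2 −0.50 ± 0.11, edgeR adjusted p = 0.025), and SERPINA3, antichymotrypsin, from 383 ± 57.5 to 262 ± 42.6 CPM (log2 −0.55 ± 0.12, edgeR adjusted p = 0.0367). AHSG, fetuin A, a protein that falls in the acute phase, stood at 5417 ± 433 to 4083 ± 564 CPM (adjusted p = 0.193). With the trend on transcript length removed the acute-phase median was −0.18. C8B, the beta chain of complement component 8, was at 12.9, 13.5 and 11.6 CPM with KLA and 7.42, 7.66 and 5.23 with DexKLA (log2 −0.95 ± 0.18, edgeR adjusted p = 0.0118). It was the only called gene of 44 tested in coagulation and complement (median −0.10), with C3 at 1518 ± 279 to 1628 ± 135 CPM. IGFBP2 was called in all 12 fits, C8B in 10 of 12, AFP, FGB and IGFBP4 in 7 of 12 each and SERPINA3 in 3 of 12. The largest adjusted p among those fits was 0.172 for C8B, 0.137 for AFP, 0.0903 for FGB, 0.164 for IGFBP4 and 0.225 for SERPINA3.

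Among NF-kB and inflammatory targets, 1 of 19 tested genes was called, lower, with a median of −0.07. That gene was IER3, an early response gene with 6 annotated loci and an antisense partner, IER3-AS1, which fell from 156 ± 27.7 to 101 ± 14.5 CPM (log2 −0.63 ± 0.12, edgeR adjusted p = 0.0131) and was called in 10 of 12 fits (not without KLA replicate 1 or DexKLA replicate 3, adjusted p up to 0.12). CCL20, a chemokine, stood at 528 ± 175 to 515 ± 203 CPM and varied widely between replicates. SOD2, the mitochondrial superoxide dismutase, stood at 266 ± 7.17 to 265 ± 7.597 CPM, and CFB, complement factor B, at 199 ± 13.996 to 175 ± 19.3 CPM. IL6R, the receptor for the cytokine interleukin 6, was called higher, from 20.3 ± 2.43 to 32.4 ± 1.89 CPM (log2 0.68 ± 0.14, edgeR adjusted p = 0.0195), in 8 of 12 fits (adjusted p up to 0.0971).

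None of 17 tested genes of the TLR4 complex and its adaptors was called (median −0.05). TLR4 had 8, 9 and 5 counts in the KLA libraries and 1, 3 and 4 in the DexKLA libraries, and was not tested. Scaled to library totals, the ratio of its pooled counts in DexKLA over KLA was 0.799, with a 95% counting interval of 0.307 to 1.86. LY96, the partner of TLR4 in lipopolysaccharide recognition, was at 2.12, 1.88 and 3.13 CPM with KLA and 1.599, 1.39 and 1.83 with DexKLA, and CD14, the co-receptor, at 3.08, 3.58 and 1.79 and 2.74, 1.39 and 1.33. Both pairs of groups were low; those of CD14 overlapped and those of LY96 did not (edgeR adjusted p = 0.588 for LY96 and 0.564 for CD14). IRAK1, a kinase of the pathway, stood at 283 ± 7.97 to 274 ± 25.3 CPM. No member was called of 31 interferon-stimulated and MHC class I genes (median −0.12), 25 genes of the unfolded protein and integrated stress responses (0.01), 38 cell cycle genes (−0.02), 29 liver transcription factors (−0.01) or 13 genes of metallothioneins and zinc (−0.05). CEBPA, a liver transcription factor, stood at 247 ± 29.6 to 178 ± 22.9 CPM (adjusted p = 0.0774), HNF4A at 184 ± 13.9 to 203 ± 15.6 CPM, and MT2A, a metallothionein, at 125 ± 14.7 to 172 ± 25.5 CPM (adjusted p = 0.147). Of 21 tested genes of iron handling, ID1, described above, was the only one called (median −0.09). Of 32 genes of ERK feedback and the EGF receptor, ERRFI1 was called higher and IER3 lower (median −0.05), with DUSP6, a phosphatase of ERK, at 199.7 ± 22.7 to 281 ± 30.6 CPM (adjusted p = 0.0562).

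**Figure D3:**
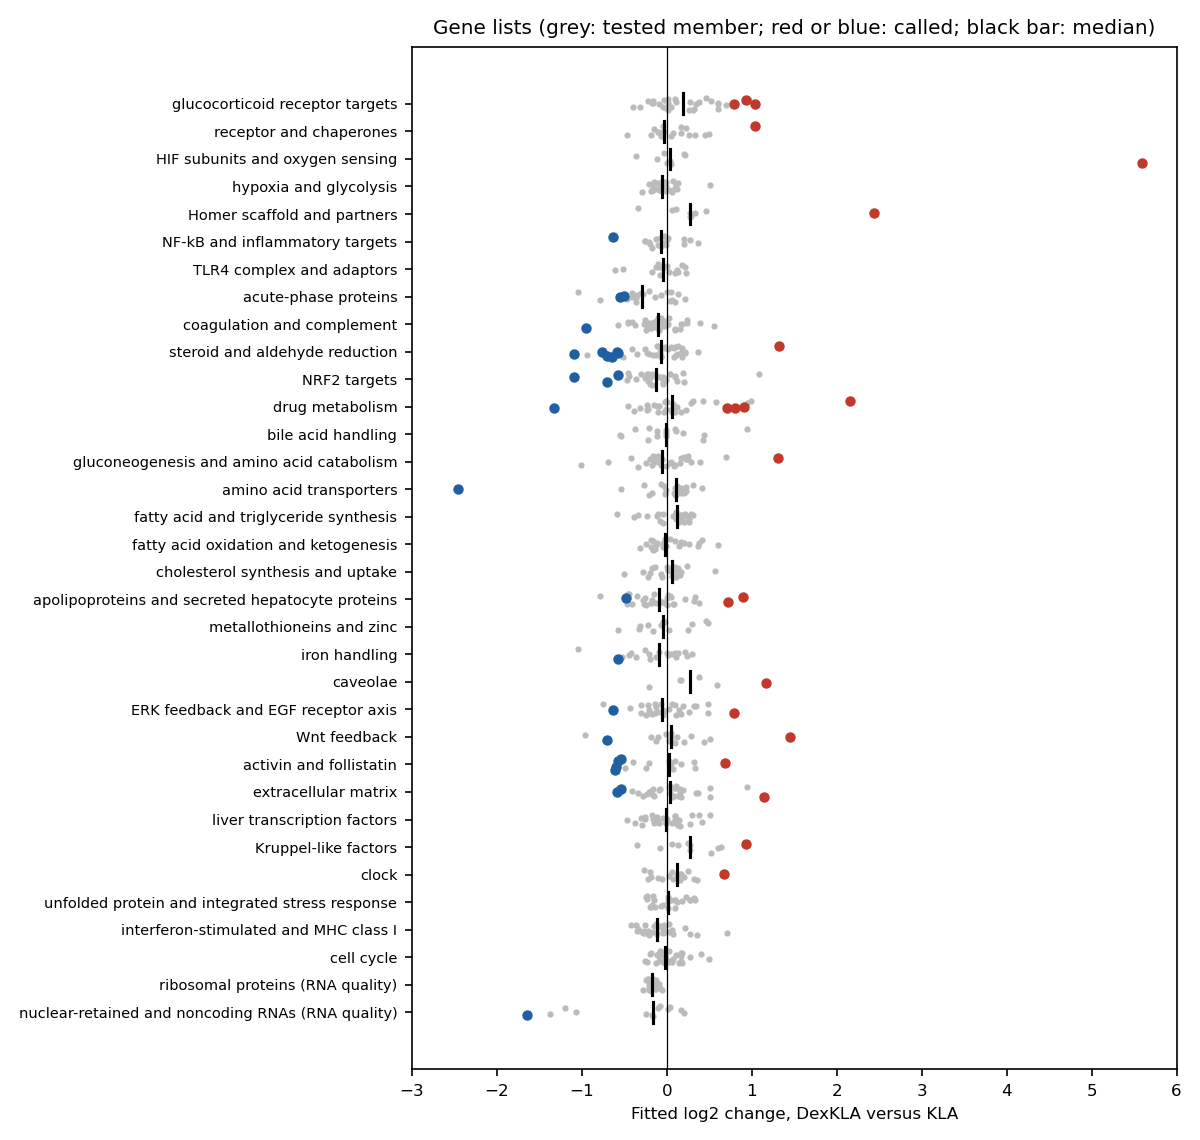
Fitted log2 change in DexKLA versus KLA (horizontal axis) of the tested members of each gene list (vertical axis), 1 point per gene, with called genes in red (higher) or blue (lower) and the list median as a black bar. Medians lie between −0.29 (acute-phase proteins) and 0.28 (Kruppel-like factors). Lists differ in called and in uncalled members: all 27 ribosomal protein genes lie below 0 with none called, against 6505 of all 13166 tested genes below 0.

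Called genes outside the lists had mixed roles. MIXL1, a homeobox factor of early mesoderm and endoderm, rose from 49.4 ± 9.99 to 96.8 ± 17.9 CPM (log2 0.97 ± 0.17, edgeR adjusted p = 0.00351), and FAM169A, which lies opposite NSA2, from 97.9 ± 12.5 to 178 ± 20.1 CPM (log2 0.87 ± 0.13, edgeR adjusted p = 0.000869). HOXD1, another homeobox gene, which lies opposite HAGLR, fell from 10.1, 7.59 and 6.03 CPM with KLA to 3.65, 3.48 and 2.16 with DexKLA (log2 −1.40 ± 0.25, edgeR adjusted p = 0.00486), and TEX19, a germ cell gene, from 19.9, 20.4 and 19.4 to 12.3, 12.3 and 10.8 CPM (log2 −0.77 ± 0.15, edgeR adjusted p = 0.0128). Neither fall was called without DexKLA replicate 3 (adjusted p = 0.116 and 0.12) or when thinned, where HOXD1 was at −0.37 (adjusted p = 0.866) and TEX19 at −0.43 (adjusted p = 0.711). SAMHD1, which degrades deoxynucleotides and lies opposite TLDC2, rose by 0.76, MBNL3, a splicing regulator, by 0.69, LANCL1 by 0.61 and KLHL14 by 0.65, and these were called in all 12 fits. None of the 4 was called when thinned (adjusted p up to 0.379), nor were MBNL3 and KLHL14 with the 6 libraries alone. NT5E, the ecto-nucleotidase CD73, fell by 0.49. SMOC1, a matrix-associated protein, rose by 0.56, EMP2, a membrane protein, by 0.56, ATAD2, a chromatin reader, by 0.64 and TBL1X, a corepressor subunit, by 0.62. Rises of 0.74 for the mechanosensitive channel PIEZO2, 0.69 for the scaffold AKAP12, 0.89 for DISC1 (within TSNAX-DISC1), 0.57 for ART4, 0.56 for RHOBTB3, 0.53 for the translation inhibitor PDCD4 (opposite BBIP1), 0.50 for aminopeptidase N (ANPEP) and 0.49 for the actin-capping TMOD3 were called too. NT5E and the 12 genes that followed it each lost the call in 1 to 10 of the 12 fits, TMOD3 in the most (adjusted p up to 0.173). The largest adjusted p among the 13 was 0.421 for PIEZO2, 0.374 for DISC1 and 0.254 for PDCD4. The low-count transcript LOC285847, which overlaps FKBP5 on the same strand and ARMC12, was called higher (log2 2.64 ± 0.59, edgeR adjusted p = 0.0367). It had 2, 2 and 4 counts with KLA and 5, 4 and 16 with DexKLA, a pooled ratio of 6.86 with a 95% counting interval of 3.00 to 17.6. In the Dex libraries, outside this comparison, LOC285847 had 14, 29 and 8 counts. The filter used all 12 libraries, and LOC285847 was not tested with the 6 libraries alone. Of the 12 fits that left out 1 library it was tested in 6 and called in 4. The call ended without Dex replicate 3 or DexKLA replicate 2 (edgeR adjusted p up to 0.0945).

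Start-site sequence was examined because the receptor binds DNA directly. RefSeq promoters (GRCh38.p14, 250 bases before to 50 after the start) were matched for 45 of the 58 genes called higher and 22 of the 28 called lower. The inverted repeat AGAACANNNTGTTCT, which reads the same on both strands, was in none of these windows, in none of 10312 tested genes and in 1 of 27305 promoters (0.00366%). The looser GNACANNNTGTNC was in 1 of 45 (GNMT, after the start), 0 of 22, 0.194% of tested genes and 0.388% of all promoters. A single arm, AGAACA on either strand, was in 9 of 45 genes called higher (20%), 2 of 22 called lower (9.09%), 8.97% of tested genes and 14.9% of all promoters. These matches are letters in a short window, not binding sites, and enhancers farther away were not examined. The windows below show the arm in capitals (AGAACA, or TGTTCT where it is on the other strand) upstream of 2 genes that rose and the 2 that fell, 5′ to 3′ along the gene: CYP3A5 (chr7:99680087-99680137, minus strand, 119 bases before the start), MIXL1 (chr1:226223427-226223477, plus strand, 215 bases before), ID1 (chr20:31605087-31605137, plus strand, 180 bases before) and SERPINA3 (chr14:94612279-94612329, plus strand, 90 bases before, with an overlapping second copy 85 bases before).
CYP3A5: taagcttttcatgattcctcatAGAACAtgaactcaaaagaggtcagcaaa
MIXL1: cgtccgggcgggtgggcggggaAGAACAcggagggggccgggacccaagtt
ID1: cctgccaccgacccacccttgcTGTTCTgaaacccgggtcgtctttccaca
SERPINA3: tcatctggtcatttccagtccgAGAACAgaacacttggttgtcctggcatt

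The change with Dex was set beside that without KLA, in Dex versus DMSO, which shares no library with DexKLA versus KLA though both were fitted in 1 model. There 270 of 13166 genes were called (2.05%). Of the 58 genes higher with KLA present, 30 were called higher there too, and of the 28 lower ones 7 were called lower. HIF3A changed by 5.10 ± 0.42 without KLA and 5.59 ± 0.33 with it, and HOMER2 by 1.93 ± 0.17 and 2.44 ± 0.14. The genes higher in both had a median of 1.14 without KLA and 0.91 with it. SLC26A3 stood at 1.56 ± 0.20 without KLA and 0.78 ± 0.16 with it, and AFP at 1.13 ± 0.15 and 0.72 ± 0.15, and neither difference was called (interaction adjusted p = 0.0928 and 0.26).

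Other genes were called in cells with KLA and not in cells without it. The 28 risers of this kind had a median log2 change of 0.30 without KLA and 0.71 with it, and the 21 fallers −0.23 and −0.70. CYP3A43 stood at 0.93 ± 0.43 and 2.16 ± 0.35, LYST at 0.62 ± 0.40 and 1.63 ± 0.31, DOCK4 at 0.42 ± 0.18 and 1.18 ± 0.15, and TEX19 at −0.01 ± 0.17 and −0.77 ± 0.15. These genes were picked by the second value, so the gap is a description. The difference itself, the interaction of Dex and KLA, was called for 5 of 13166 genes (0.038%), 1 of them among the 86: RPPH1, the RNA of ribonuclease P. RPPH1 was at 6.73, 6.67 and 5.25 CPM with KLA and 2.06, 2.55 and 1.66 with DexKLA (log2 −1.64 ± 0.30, edgeR adjusted p = 0.00679), with no overlap. In Dex versus DMSO it changed by 1.02 ± 0.37 (interaction −2.66 ± 0.48, edgeR adjusted p = 0.0449). Besides RPPH1, 7 called genes had the opposite sign without KLA, with none called there: DISC1, PIEZO2, SLC23A2, IL6R, TMOD3, INHA and IER3. IER3 stood at 0.28 ± 0.13 without KLA and −0.63 ± 0.12 with it (interaction adjusted p = 0.0544).

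**Figure D4:**
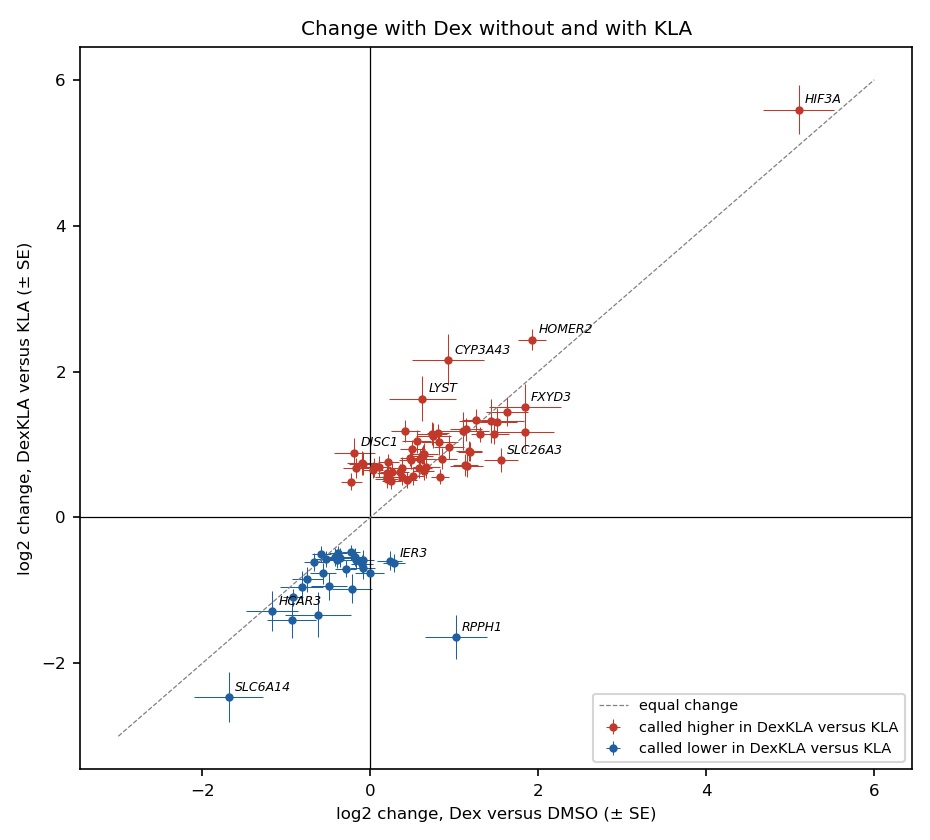
Fitted log2 change with Dex without KLA (Dex versus DMSO, horizontal axis) and with KLA (DexKLA versus KLA, vertical axis) for 85 of the 86 called genes, with bars of 1 standard error and a dashed line of equal change. LOC285847, which had 0 counts in every DMSO library, is left out. HIF3A and HOMER2 lie far up on both axes, and RPPH1 is the farthest from the line, at 1.02 and −1.64.

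Transcript length moved with the change. Across the 13166 tested genes, which are not independent replicates and share the 6 libraries, Spearman's rho between length and log2 change was 0.494. The median change was −0.13 in the shortest quintile of transcripts and 0.16 in the longest. Median lengths were 3672.5 bases for genes called higher, 2023 for those called lower and 3130 for all. The 30 risers also called without KLA had a median length of 2604.5 bases and the other 28 risers 5179.5. Single libraries carried the trend unequally: correlating length with how far each library lay from the average of the 12 gave a rho of −0.526 (KLA replicate 3) to −0.152 with KLA and of −0.134 to 0.385 (DexKLA replicate 3) with DexKLA. With each library's smooth trend on length removed, 101 genes were called and 72 of the 86 remained. The 14 that did not were NXPH3, DISC1, PIEZO2, AKAP12, LIPG and TMOD3 among the rises, and SULT1E1, SLC22A7, IER3, INHA, ID1, ID2, SERPINA3 and CCN2 among the falls. Their changes kept their sign, at 0.32 (TMOD3) to 1.09 (NXPH3) for the rises against 0.49 to 1.19 as reported, and at −1.23 (SULT1E1) to −0.41 (ID2) for the falls against −1.33 to −0.54, with adjusted p of 0.0545 to 0.367. Without both KLA replicate 3 and DexKLA replicate 3, an alternative chosen after seeing the data, 83 were called (56 higher, 27 lower) and 61 of the 86 remained.

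**Figure D5:**
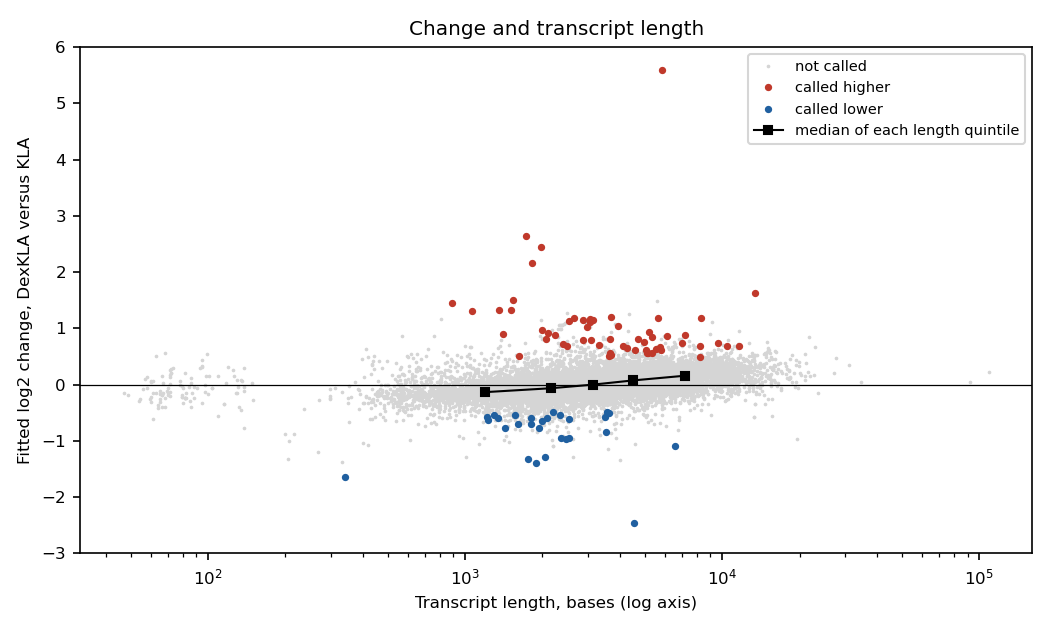
Fitted log2 change in DexKLA versus KLA (vertical axis) against transcript length in bases (horizontal log axis) for all tested genes, with genes called higher in red, genes called lower in blue and the median of each length quintile as black squares. The medians climb from −0.13 to 0.16, while HIF3A, HOMER2 and SLC6A14 lie far outside that band.

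Other short structured RNAs were not called. RN7SK, RMRP and SCARNA2 had log2 changes of −1.38, −1.20 and −1.07 (edgeR adjusted p = 0.178, 0.252 and 0.469), and of 13 tested nuclear-retained and noncoding RNAs RPPH1 was the only one called (median −0.16). The RPPH1 call ended without DexKLA replicate 3 (adjusted p = 0.125). All 27 ribosomal protein genes were below 0 with none called (median −0.18), against 6505 of all 13166 tested genes below 0. RPS6 stood at 1990.3 ± 141 to 1783 ± 341 CPM. Both lists were kept as signs of RNA quality, and their part in the changes above was not tested.

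Markers of other liver cell types were low apart from genes that hepatoma cells also express. The 12 macrophage markers summed to 4356 to 4702 CPM of plain library total with KLA and 3992 to 4255 with DexKLA, nearly all of it LYZ, lysozyme. PTPRC, the leukocyte marker CD45, had 1 count over the 6 libraries, and CD163, MARCO and VSIG4 had 0. The 6 lymphocyte markers summed to 0.813 to 1.40 with KLA and 0.538 to 0.886 with DexKLA, with CD3E, CD2 and MS4A1 at 0. Endothelial markers (9) summed to 5.00 to 5.59 and 3.32 to 7.05, with KDR, CLEC4G, ERG and EMCN at 0, and stellate cell markers (11) to 82.8 to 110.8 and 78.9 to 121, with COL1A2 at 0. Cholangiocyte markers (6) summed to 1021 to 1204 with KLA and 782 to 894 with DexKLA, with CFTR at 0. In that last list SPP1 was called lower, and no other marker of these 5 lists was called.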

How the data were processed

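RNA of HepG2 cells was sequenced in 12 libraries, 3 in each of 4 groups. Trimmomatic, BWA 0.7.17, HOMER 4.10 and hg38 are named in the submitters' processing notes, without roles. Library strand is not given in the sources used here. The authors deposited values for 70507 RefSeq transcripts in steps of 0.5. These deposited values were read as estimated counts and rounded to whole numbers. Transcripts with no symbol (406, 1.71% to 2.55% of a library) were left out. For each of 28256 symbols the transcript with the highest total was kept, which decided 12552 of them. Of the tested genes 742 had several loci.

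Genes passing filterByExpr (minimum count 10, 13166 genes) entered edgeR 4.0.16 (R 4.3.3): TMM scaling, quasi-likelihood fit of 4 group means over all 12 libraries (8 residual degrees of freedom), contrast DexKLA minus KLA, Benjamini-Hochberg adjustment over all tested genes, adjusted p under 0.05. The vehicle and Dex libraries gave no mean to this contrast and entered its fit through the spread. They also took part in the filter, the TMM scaling, the choice of transcript and the average log2 CPM. They thus helped to decide which genes were tested. The standard error is the size of the log2 change over the square root of F. Levels are TMM-normalised CPM, and low counts and marker sums use plain library totals. The script was tested on simulated data.

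The members and gene lists were chosen with earlier results of these data known. Named with values in every library were the 18 largest rises and 14 largest falls among calls whose groups were apart and whose average log2 CPM was not below 0, and 6 receptor and response genes. Other called genes, and up to 3 uncalled members of a list in order of level, were named with changes or group values. The uncalled members RN7SK, RMRP and SCARNA2, outside that order, were chosen after their values were seen. Some genes that the rule selects are not reported here. Counting intervals are exact binomial at 95%. Overlapping genes came from GENCODE release 29 and RefSeq GRCh38.p14. Alternatives were DESeq2 1.42.0 size factors and test, library size alone, limma 3.58.1 voom, no filter, a minimum of 50 reads in 3 libraries, the longest transcript, a replicate block, the 6 libraries alone, thinning, removal of a loess length trend (span 0.3), each library left out, and KLA and DexKLA replicate 3 both left out (added after seeing the data).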

Additional observations from a re-analysis of the deposited data

Results flagged for a closer look

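The change with Dex differed between cells with and without KLA, by edgeR's quasi-likelihood test of the interaction with Benjamini-Hochberg adjustment, for 5 genes, each at an adjusted p of 0.0449. For CYP24A1, which inactivates vitamin D, the interaction was 2.23 ± 0.37 on the log2 scale, with 0.43 ± 0.26 in DexKLA versus KLA (not called) and −1.80 ± 0.27 in Dex versus DMSO. HIPK1, a nuclear kinase, had an interaction of 1.11 ± 0.19, with 0.45 ± 0.13 and −0.66 ± 0.14 in the same order. MYCBP2, a ubiquitin ligase that overlaps MYCBP2-AS1, had 1.21 ± 0.22, with 0.58 ± 0.15 and −0.63 ± 0.17. PRKAR1A, a regulatory subunit of protein kinase A, had 0.82 ± 0.15, with 0.23 ± 0.11 and −0.59 ± 0.11. RPPH1 had −2.66 ± 0.48, with −1.64 ± 0.30 and 1.02 ± 0.37. None of the first 4 was called in DexKLA versus KLA. In KLA versus DMSO the log2 change was −2.08 for CYP24A1, −0.60 for HIPK1, −0.61 for MYCBP2 and −0.77 for PRKAR1A. For each of these 4 the DMSO group had the highest mean level. Transcripts were 14992 bases long for MYCBP2, 8070 for HIPK1 and 340 for RPPH1. With the length trend removed 1 of the 5 was still called. Each of the 5 lost its call under at least 11 alternatives.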

How the results depend on the processing

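The 86 called genes kept their sign wherever they were tested, but the alternatives reuse the counts by which these genes were picked. Between 84 and 89 genes were called with DESeq2 size factors, library size alone, voom or the longest transcript, 116 with the DESeq2 test, 78 with 50 reads in 3 libraries and 101 with the length trend removed. With no filter 204 were called, with the 6 libraries alone 38 (30 higher, 8 lower), and with thinning 28. Leaving out each library gave 52 to 94, and the share higher was 89.1% without DexKLA replicate 3 against 67.4%. With the replicate block 74 were called. The labels do not say whether replicate numbers pair the samples. Between same-numbered KLA and DexKLA libraries, deviations from the group means had correlations of −0.0835 to 0.0361. These values are few, and the deviations also carry trends such as that on length, so they cannot settle the matter. The count of interactions was unstable: 0 with DESeq2 size factors, voom, the replicate block or both replicates 3 left out, 1 with thinning, 2 with the length trend removed, 230 with library size alone, 705 with the DESeq2 test, 1040 with no filter, and 0 to 681 leaving out each library (unadjusted p under 0.05 for 2922 genes in the fit as reported). The cause was not tested. Depth limits low genes: 1 count was 0.0478 CPM in the deepest KLA library and 0.222 in the shallowest DexKLA library.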
